A study of Mus musculus with 24 samples.

Results

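The genes described here are 7 that encode germline RNA-binding regulators of translation: Nanos1, Nanos2, Nanos3, Dazl, Dnd1, Pum2 and Cpeb1. They were taken by gene symbol and not by a cut on their values, although earlier results of these data were known. All 7 were found in both deposited expression tables. The table of the Zbtb16 experiment held 23177 genes and that of the Sox3 experiment 21688. All 7 passed the filter on low values in both tables. RNA-seq was done on mouse spermatogonia sorted at postnatal day 7 (P7), in 8 groups of 3 libraries each, to find which genes respond to the loss of the transcription factors ZBTB16 and SOX3.

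The Zbtb16 experiment compared Zbtb16 null mice, which carry the luxoid allele, with WT littermates. The Sox3 experiment compared a germline conditional knockout (cKO), in which Cre driven by the Ddx4 (Vasa) promoter deletes a floxed Sox3, with WT littermates. All mice were on the C57BL/6J background, and testes of 3 mice were pooled for each isolation, so a library is a pool and not an animal. Magnetic beads against the surface proteins THY1 and KIT gave a THY1+ fraction of undifferentiated spermatogonia (uSPG) and a KIT+ fraction of differentiating spermatogonia (dSPG). The beads take any cell that carries the protein, also cells that are not germ cells.

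NANOS proteins are zinc finger proteins that bind target mRNAs with partners such as PUMILIO (PUM) and DND1 and recruit the CCR4-NOT deadenylase, which shortens the poly(A) tail and silences the mRNA. NANOS2 is known for maintaining spermatogonial stem cells, and NANOS3 for protecting primordial germ cells and for its presence in undifferentiated spermatogonia. DAZL binds mRNAs of germ cells and mostly promotes their translation, and CPEB1 binds the cytoplasmic polyadenylation element and sets the length of the poly(A) tail.

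Estimated depth was 25.95 to 35.19 M reads in the Zbtb16 libraries, and in the Sox3 libraries 28.25 to 31.89 M in replicate 1 but 11.02 to 14.92 M in replicate 2 and 11.19 to 14.05 M in replicate 3. Sox3 mRNA was at most 0.0820 FPKM in the 6 cKO libraries against at least 6.28 FPKM in their WT. Zbtb16 mRNA was 17.1 ± 1.33 FPKM (SD, n = 3) in null against 52.1 ± 8.93 in WT THY1+ libraries and is still read from the luxoid allele. In the WT libraries of the Sox3 table the sorting markers went against the labels: Thy1 was 0.213 to 0.254 FPKM in those labelled THY1+ and 3.59 to 4.06 in those labelled KIT+, while Kit was 45.6 to 80.1 and 12.97 to 18.8. These libraries were not regrouped and are called "labelled THY1+" and "labelled KIT+", and cKO groups are also set beside the WT group with like markers. The fractions were mixed: the summed FPKM of 8 macrophage markers was 339 to 820 in the 6 THY1+ libraries of the Zbtb16 table and 5.71 to 14.6 in the 6 KIT+ libraries, and that of 6 Leydig cell markers was 49.8 to 119 and 1215 to 3122. Fewer cells of a type and less RNA per cell cannot be told apart in such bulk samples.

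FPKM scales the reads of a gene to its length and to the depth of its library, so levels of different genes can be compared per length. Dazl was the most abundant member by far, with a mean of 467 FPKM over the 12 libraries of the Zbtb16 table, above 99.8% of its genes. Pum2 followed at 42.0 FPKM, then Dnd1 at 22.1, Nanos1 at 15.4, Nanos3 at 14.8 and Cpeb1 at 11.99. Nanos2 was lowest at 3.75 FPKM, above 51.2% of genes, and rested on an estimated 33 to 357 reads per library there and on 16 to 351 in the Sox3 table. The order of the mean levels in the Sox3 table differed for 1 pair of neighbours, since Nanos3 at 17.3 FPKM stood above Nanos1 at 14.1.

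**Figure D1:**
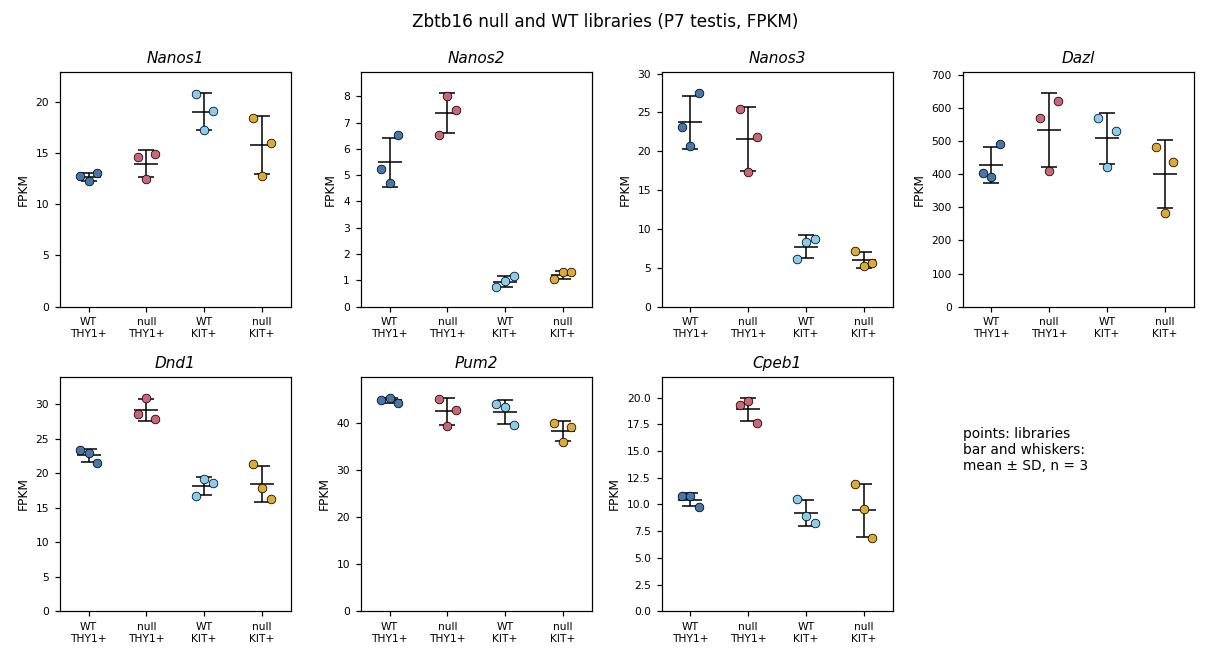
FPKM of the 7 genes in each library of the Zbtb16 table (points), with the mean and SD of the 3 libraries of a group (bar and whiskers). Each panel has its own axis from 0. Nanos2 and Nanos3 stand high in both THY1+ groups, and Cpeb1 stands highest in null THY1+ libraries.

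Nanos2 lies on chromosome 7 at chr7:18987400-18988962 on the plus strand (GRCm38) and is overlapped by an antisense transcript, Gm45058. Nanos3 lies at chr8:84173731-84185217 on the minus strand, and the miRNA genes Mir181c and Mir181d overlap it on the same strand. Cpeb1 lies at chr7:81347026-81455465 on the minus strand, and the processed pseudogene Rpl7a-ps9 overlaps it on the other strand. Nanos1 is at chr19:60755987-60759914 (plus), Dazl at chr17:50279395-50293636 (minus) and Pum2 at chr12:8674134-8752581 (plus). No source used here gives the counting strand. Reads of Nanos2 thus cannot be told apart from those of Gm45058, nor reads of Cpeb1 from those of Rpl7a-ps9 where they overlap.

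The promoter windows of Nanos2 and Nanos3 are shown because both genes move together between the fractions, and that of Cpeb1 because it is the one member called between null and WT THY1+ cells. They come from RefSeq (GRCm38.p6), from which windows of 6 of the 7 genes, all but Dnd1, were used. Each runs 5′ to 3′ on the gene's strand from 250 bases before the transcription start to 50 after it. Nanos2 is chr7:18987274-18987573, Nanos3 is chr8:84176503-84176802 and Cpeb1 is chr7:81454709-81455008. The RefSeq start of each of these genes lies inside its gene span given above, farthest inside for Nanos3. Distances below are counted from the RefSeq start. Capitals mark matches on either strand to TATAA, to CCAAT or to ACAAT, the core of the site that SOX proteins bind.
Nanos2: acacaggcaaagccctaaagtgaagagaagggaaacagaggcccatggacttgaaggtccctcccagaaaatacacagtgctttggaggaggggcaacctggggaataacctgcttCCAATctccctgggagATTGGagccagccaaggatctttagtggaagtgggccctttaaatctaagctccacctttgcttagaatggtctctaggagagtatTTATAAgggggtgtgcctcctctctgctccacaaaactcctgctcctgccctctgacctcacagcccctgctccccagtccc
Nanos3: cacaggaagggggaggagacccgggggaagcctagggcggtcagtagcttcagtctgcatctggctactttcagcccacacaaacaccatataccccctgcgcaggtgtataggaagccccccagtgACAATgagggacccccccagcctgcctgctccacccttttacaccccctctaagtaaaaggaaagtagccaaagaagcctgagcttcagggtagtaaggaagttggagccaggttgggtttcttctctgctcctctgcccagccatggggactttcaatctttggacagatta
Cpeb1: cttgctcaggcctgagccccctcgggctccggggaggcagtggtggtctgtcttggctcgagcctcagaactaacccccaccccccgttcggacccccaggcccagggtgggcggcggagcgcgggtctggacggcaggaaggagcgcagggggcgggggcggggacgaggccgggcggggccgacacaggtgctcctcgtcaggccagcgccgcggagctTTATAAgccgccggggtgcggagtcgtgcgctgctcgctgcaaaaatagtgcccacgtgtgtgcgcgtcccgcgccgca

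The Nanos2 window held TATAA on both strands of 1 overlapping stretch that begins 32 bases before the start, with 2 CCAAT matches further upstream. The Cpeb1 window held a TATAA stretch of the same form 29 bases before the start and had a GC content of 72.7%, against 53.0% for Nanos2 and 55.3% for Nanos3. The Nanos3 window held neither TATAA nor CCAAT but 1 ACAAT match, 123 bases before the start. Among all 32851 windows, 24.9% held TATAA, 37.4% CCAAT and 31% ACAAT, so such matches are common, and they describe letters and not binding.

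The first comparison asked how the members differ between KIT+ dSPG and THY1+ uSPG. In the WT libraries of the Zbtb16 table Nanos2 was 5.24, 4.70 and 6.52 FPKM in THY1+ and 0.731, 0.987 and 1.15 in KIT+ libraries. In null libraries it was 6.54, 8.03 and 7.49 FPKM in THY1+ and 1.04, 1.30 and 1.30 in KIT+. Every THY1+ library lay above every KIT+ library, and Nanos2 was 5.31-fold lower in KIT+ of WT (log2 change -2.41 ± 0.19, SE, limma adjusted p = 3.823e-06) and 5.67-fold lower in KIT+ of null mice (-2.50 ± 0.19, limma adjusted p = 3.156e-06).

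Nanos3 followed the same order. It was 23.1, 20.7 and 27.4 FPKM in WT THY1+ against 6.10, 8.37 and 8.76 in WT KIT+ libraries. In null mice it was 25.5, 17.3 and 21.9 FPKM in THY1+ against 7.13, 5.18 and 5.68 in KIT+. The fractions did not overlap, and Nanos3 fell by 1.61 ± 0.19 on the log2 scale in WT (limma adjusted p = 7.966e-05) and by 1.82 ± 0.19 in null mice (limma adjusted p = 2.382e-05). The lower level of Nanos2 and Nanos3 in KIT+ cells was seen in both genotypes, and the interaction, the change in KIT+ less that in THY1+, was -0.09 for Nanos2 (95% interval -0.67 to 0.48) and -0.21 for Nanos3 (-0.79 to 0.36).

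In the Sox3 cKO libraries, Nanos2 was 7.61, 5.17 and 7.02 FPKM in THY1+ and 1.80, 0.881 and 2.11 in KIT+. Nanos3 was 23.0, 21.01 and 23.0 FPKM in THY1+ and 9.84, 7.99 and 7.29 in KIT+. Neither gene's groups overlapped, with a log2 change of -2.05 ± 0.31 for Nanos2 (limma adjusted p = 0.00046) and -1.42 ± 0.18 for Nanos3 (limma adjusted p = 0.000163). The same fall was seen for markers of undifferentiated spermatogonia: all 6 tested besides Zbtb16 fell in WT and null mice of the Zbtb16 table (median -2.47 and -2.16), and all 7 fell in cKO (median -1.86).

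Nanos1, the third NANOS gene, did not share this order. It was 12.7, 12.3 and 13.02 FPKM in WT THY1+ and 20.8, 17.2 and 19.14 in WT KIT+ libraries, so that every KIT+ library was higher. The difference of 0.58 ± 0.13 (limma adjusted p = 0.0065) passed the test but stayed just under 1.5-fold. With 1 library left out it ran from 0.52 to 0.65 and reached 1.5-fold in 2 of 6 fits. In null mice the fractions overlapped, at 12.4 to 14.9 FPKM in THY1+ and 12.8 to 18.5 in KIT+ (0.16 ± 0.13, limma adjusted p = 0.364). In cKO the KIT+ libraries, at 11.2 to 15 FPKM, all lay above the THY1+ libraries at 8.18 to 11.1, and the difference of 0.37 ± 0.15 did not pass (limma adjusted p = 0.0792).

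Genes were called where the adjusted p was 0.05 or less and the levels differed 1.5-fold or more. Between the fractions in WT mice of the Zbtb16 experiment, 2 of the 7 members were called, Nanos2 and Nanos3, both lower in KIT+, where 21.2% of all genes tested were called and 14% were called lower. In null mice 4 of 7 were called, with Dnd1 and Cpeb1, all lower in KIT+, against 29.2% of all genes called and 16% called lower. In cKO mice 3 of 7 were called, Nanos2, Nanos3 and Cpeb1, all lower in KIT+, against 22.7% and 12.2%. The groups of 5, 4 and 5 members did not overlap in WT, null and cKO mice, against 42.7%, 48.6% and 44.5% of all genes. The median log2 change of the members was -0.18 in WT, -0.66 in null and -0.49 in cKO mice, beside -0.03, -0.05 and -0.02 over all genes tested.

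**Figure D2:**
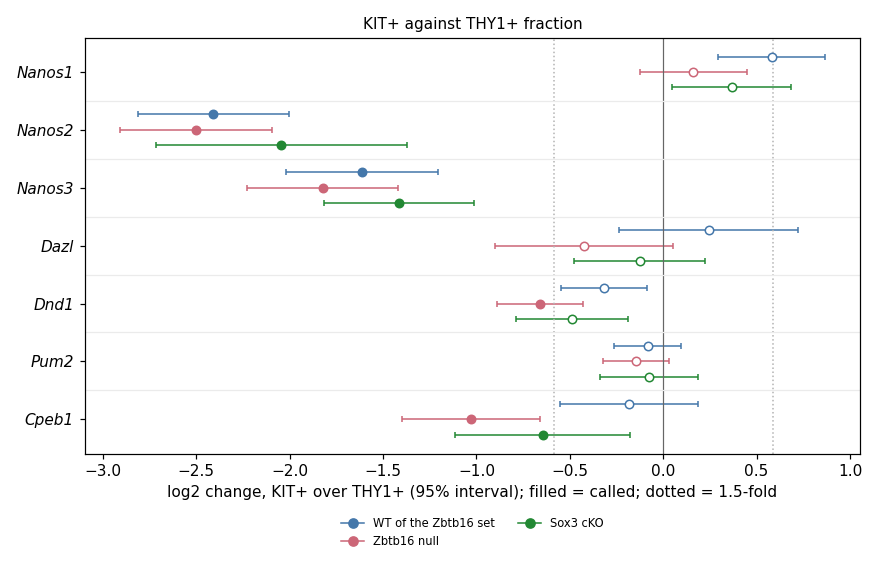
Log2 change of each member, KIT+ over THY1+, with its 95% interval, in WT and Zbtb16 null mice and in Sox3 cKO mice. Filled points are calls and dotted lines mark 1.5-fold. Nanos2 and Nanos3 lie at -1.42 or below in all 3 sets, while Nanos1 lies above 0 in each.

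Dnd1 encodes a partner of NANOS proteins that is needed for germ cell survival. The gene lies on chromosome 18, where Wdr55 overlaps it on the other strand, so reads of both cannot be told apart. Dnd1 was 23.3, 23.0 and 21.5 FPKM in WT THY1+ and 16.6, 19.13 and 18.6 in WT KIT+ libraries, and 28.5, 30.9 and 27.9 in null THY1+ and 21.3, 17.9 and 16.2 in null KIT+ libraries. KIT+ was the lower fraction in both genotypes without overlap, by 0.32 ± 0.10 on the log2 scale in WT (limma adjusted p = 0.0399, under 1.5-fold) and by 0.66 ± 0.10 in null mice (limma adjusted p = 0.000469). In cKO the difference was -0.49 ± 0.14 (limma adjusted p = 0.0192), again under 1.5-fold. Without null KIT+ replicate 3 the change in null mice was -0.57, just under 1.5-fold.

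Cpeb1 did not differ between the fractions of WT mice beyond the spread of the libraries, at 10.8, 10.8 and 9.72 FPKM in THY1+ and 10.5, 8.89 and 8.22 in KIT+ (-0.18 ± 0.17, limma adjusted p = 0.458). In null mice it was 19.3, 19.7 and 17.7 FPKM in THY1+ and 11.9, 9.56 and 6.86 in KIT+, a fall of 2.04-fold (-1.03 ± 0.17, limma adjusted p = 0.00061). In cKO mice it was 10.5, 9.55 and 12.8 FPKM in THY1+ and 5.15, 8.85 and 7.23 in KIT+ (-0.65 ± 0.21, limma adjusted p = 0.0407). The cKO call did not hold in a fit of the cKO libraries alone (limma adjusted p = 0.0602), nor without KIT+ replicate 1 (-0.44), KIT+ replicate 3 (-0.68), THY1+ replicate 1 (-0.67) or THY1+ replicate 3 (-0.53).

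Dazl and Pum2 were not called between the fractions in any of these 3 sets. Dazl was 390 to 489 FPKM in WT THY1+, 423 to 569 in WT KIT+, 409 to 621 in null THY1+ and 284 to 480 in null KIT+ libraries, and each of these ranges overlapped its neighbours. Pum2, a PUMILIO repressor that many tissues express, varied least, from 35.9 to 45.3 FPKM over the 12 libraries of the Zbtb16 table. Its log2 changes between the fractions ran from -0.15 to -0.08.

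The next comparison asked which members depend on ZBTB16. In THY1+ uSPG Cpeb1 alone was called, 1 of 7 members against 3.98% of all genes called and 2.71% called higher. Its null libraries, at 19.3, 19.7 and 17.7 FPKM, all lay well above the WT libraries at 10.8, 10.8 and 9.72, a rise of 1.80-fold (0.85 ± 0.17, 95% interval 0.48 to 1.22, limma adjusted p = 0.0179). Dnd1, at 28.5, 30.9 and 27.9 FPKM in null against 23.3, 23.0 and 21.5 in WT libraries, did not overlap either but was not called (0.36 ± 0.10, limma adjusted p = 0.0695). Nanos2 was likewise apart, at 6.54 to 8.03 FPKM in null against 4.70 to 6.52 in WT (0.42 ± 0.19, limma adjusted p = 0.193). The groups of 3 of 7 members thus did not overlap, as was the case for 29.5% of all genes.

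The other members gave log2 changes of 0.30 for Dazl, 0.14 for Nanos1, -0.08 for Pum2 and -0.15 for Nanos3, each with overlapping groups. The call of Cpeb1 was close to the threshold: it rose by 0.80 to 0.90 when 1 library was left out, but the adjusted p was 0.0777 without null replicate 1 and 0.0588, 0.0562 and 0.0512 without WT replicates 1, 2 and 3. With same-numbered libraries as blocks its adjusted p was 0.00244 and 1980 in place of 890 of all genes were called. The summed FPKM of 8 markers of all germ cells was 1050 to 1172 in the null THY1+ libraries against 841 to 934 in WT, with a median log2 change of 0.39, 8 of 8 above 0 and 0 called. The markers of macrophages had a median of -0.75 with 1 of 8 called, and those of Leydig and Sertoli cells had medians of -0.84 and -0.58 with 0 called. Relative to the germ cell markers the log2 change was 0.47 for Cpeb1 (limma adjusted p = 0.0445, under 1.5-fold), -0.02 for Dnd1 and 0.04 for Nanos2, and 0 members were called. Beyond that scaling, the part of these markers in the result was not tested.

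In KIT+ dSPG 0 of 7 members were called, against 0.259% of all genes, and none had an unadjusted p under 0.05. Cpeb1, at 6.86 to 11.9 FPKM in null and 8.22 to 10.5 in WT libraries, had a log2 change of 0.01 (95% interval -0.36 to 0.38). Dnd1 had 0.02 (-0.21 to 0.25). Dazl had -0.37 (-0.84 to 0.11) and Nanos3 -0.36 (-0.77 to 0.05), and a fall of 1.5-fold lies within both intervals. The groups of all 7 members overlapped, against 17.5% of all genes whose groups did not. With the blocks, 513 in place of 58 of all genes were called and still 0 members.

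The difference between the null effects in the 2 fractions was called for 0 of 7 members, against 0.0313% of all genes. It was largest for Cpeb1 among the members, at -0.85 ± 0.24 (unadjusted p = 0.00441 and adjusted p = 0.103 in limma). Averaged over both fractions, Cpeb1 was 0.43 ± 0.12 higher in null mice (limma adjusted p = 0.0729), and 0 of 7 members were called against 2.3% of all genes. Without null KIT+ replicate 1 the difference for Cpeb1 was -1.03 and was called (limma adjusted p = 0.0406), as were 867 of all genes in place of 7. With same-numbered libraries as blocks the difference was called for Cpeb1 and Dazl, and for 2756 of all genes. Null and WT pairs correlated over 0.1 within THY1+ (0.13 to 0.48) and KIT+ (0.36 to 0.52), but not every pair across the fractions did. These calls thus depend on whether the numbers mark pairs, which the labels do not say.

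**Figure D3:**
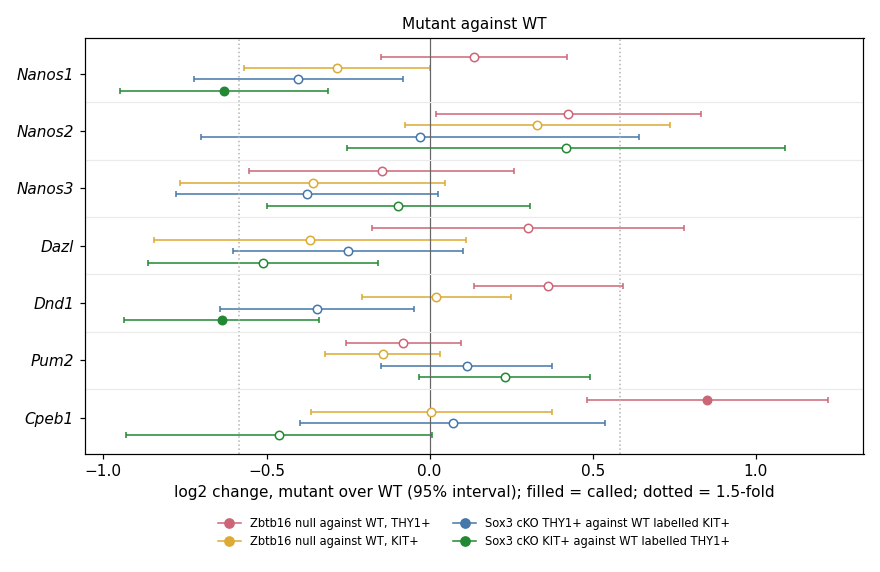
Log2 change of each member, mutant over WT, with its 95% interval. The Sox3 comparisons set cKO groups beside the WT group with like sorting markers, and filled points are calls. Cpeb1 in Zbtb16 null THY1+ cells is the one call above 0, at 0.85, and Nanos1 and Dnd1 in Sox3 cKO KIT+ cells are the calls below 0, at -0.63 and -0.64.

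The Sox3 experiment asked the same of SOX3. The cKO effect averaged over both fractions does not depend on which WT group is called THY1+. On that measure 0 of 7 members were called, against 10.3% of all genes. Nanos1 fell by 0.52 ± 0.10 on the log2 scale (limma adjusted p = 0.00624), Dnd1 by 0.49 ± 0.10 (limma adjusted p = 0.00588) and Dazl by 0.38 ± 0.11 (limma adjusted p = 0.0321), each less than 1.5-fold. The other log2 changes were -0.24 for Nanos3, -0.20 for Cpeb1, 0.17 for Pum2 and 0.19 for Nanos2, none of which passed. In the same comparison the 8 germ cell markers had a median of -0.34, with 0 of 8 above 0 and 0 called, while 4 of 6 Leydig cell markers (median 0.86) and 3 of 6 Sertoli cell markers (0.66) were called higher. Relative to the germ cell markers the changes were -0.20 for Nanos1, -0.17 for Dnd1 and -0.06 for Dazl, and none of these passed.

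cKO KIT+ libraries were then set beside the WT libraries labelled THY1+, which have like levels of the sorting markers Thy1 and Kit. Other markers were not all alike. Of 7 markers of undifferentiated spermatogonia 2 were called higher in cKO and 0 lower (median 0.72). Of 4 markers of differentiating spermatogonia 0 were called higher and 1 lower (median -0.62). Nanos1 was 11.2, 15 and 12.6 FPKM in cKO and 21.3, 21.4 and 17.4 in WT. Dnd1 was 14.4, 17.7 and 18.8 FPKM in cKO and 28.7, 21.4 and 29.6 in WT. Dazl was 354, 522 and 471 FPKM in cKO and 658, 578 and 663 in WT. For these 3 genes every cKO library lay below every WT library, and the groups of the other 4 members overlapped, while 40% of all genes tested had groups that did not.

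Of the 7 members 2 were called, both lower, against 17% of all genes called in either direction and 4.57% called lower: Nanos1 (-0.63 ± 0.15, limma adjusted p = 0.0112) and Dnd1 (-0.64 ± 0.14, limma adjusted p = 0.00806). Dazl, at -0.51 ± 0.16 (limma adjusted p = 0.0394), stayed under 1.5-fold. Nanos2 at 0.42 and Nanos3 at -0.10 did not pass. No member was called without WT labelled THY1+ replicate 1 or without cKO KIT+ replicate 1, where 3484 and 2590 of all genes were called. Leaving out WT labelled THY1+ replicate 2 or 3 gave 1 call, against 2334 and 2789 of all genes. Leaving out cKO KIT+ replicate 2 gave 3 calls, with Dazl, against 3376. With every library 3608 of 21212 genes were called. On the shallower replicates 2 and 3 alone 0 members were called, against 987 of all genes, with Nanos1 at -0.49 and Dnd1 at -0.46.

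The summed FPKM of the 8 germ cell markers was 521 to 697 in cKO KIT+ libraries against 854 to 876 in the WT group, with a median log2 change of -0.48 and 1 of 8 called, lower. The 6 Leydig cell markers summed to 2493 to 4941 FPKM against 1239 to 2004, with 5 of 6 called, higher. Relative to the germ cell markers Nanos1 was -0.18 and Dnd1 -0.19, neither called, while Pum2, at 36.2 to 44.4 FPKM in cKO and 31.5 to 36.5 in WT, became the 1 call, at 0.68 higher. On that scale 6917 of 21212 genes were called, 6770 of them higher, and the median log2 change over all genes was 0.44. From FPKM as deposited Pum2 had 0.23 ± 0.12 (limma adjusted p = 0.181).

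cKO THY1+ libraries beside WT libraries labelled KIT+ gave 0 calls among 7 members, against 0.0707% of all genes, or 15 genes, and 29 genes with same-numbered libraries as blocks. The unadjusted p was under 0.05 for Nanos1 (-0.40, 95% interval -0.72 to -0.08) and Dnd1 (-0.34, -0.64 to -0.05), whose groups did not overlap, 2 of 7 members against 19.6% of all genes. The difference between both like-marker effects was called for 0 members and for 0 genes in all, and 2709 of 21212 genes had an unadjusted p under 0.05 there in limma, no other tool having been run. The falls of Nanos1 and Dnd1 in cKO KIT+ libraries are therefore not shown to differ from their changes in cKO THY1+ libraries.

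Taken by the labels, the comparisons of the Sox3 table turned the order of Nanos2 and Nanos3. Nanos2 was 1.16, 0.766 and 1.49 FPKM in WT labelled THY1+ and 7.17, 7.08 and 5.79 in WT labelled KIT+ libraries, and Nanos3 was 11.2, 8.46 and 7.40 against 32.7, 33.1 and 22.5. Labelled KIT+ was higher by 2.49 ± 0.31 for Nanos2 and 1.70 ± 0.18 for Nanos3 on the log2 scale and lower by 0.59 for Nanos1 (-0.59 ± 0.15, limma adjusted p = 0.011), 3 calls of 7 against 19.7% of all genes. The Nanos1 call between the labelled WT groups was lost in 4 of 6 fits with 1 library left out (-0.69 to -0.54). In labelled THY1+, cKO against WT gave 3 calls of 7 against 29.1%, with Nanos2 at 2.46, Nanos3 at 1.32 and Nanos1 at -0.997. In labelled KIT+ it gave 3 of 7 against 25.1%, with Nanos2 at -2.07, Nanos3 at -1.79 and Dnd1 at -0.83. The groups of 3, 5 and 4 members did not overlap in these 3 comparisons, against 40.6%, 50.5% and 46.5% of all genes. The macrophage markers summed to 6.378 to 7.065 FPKM in WT labelled THY1+ and to 843 to 1105 in WT labelled KIT+ libraries. The Leydig cell markers summed to 1239 to 2004 and to 48.4 to 103. All 7 markers of undifferentiated spermatogonia were called higher in WT labelled KIT+. Since these markers, Thy1 and Kit of the same WT libraries go against their labels, genotype and fraction cannot be told apart in these values.

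**Figure D4:**
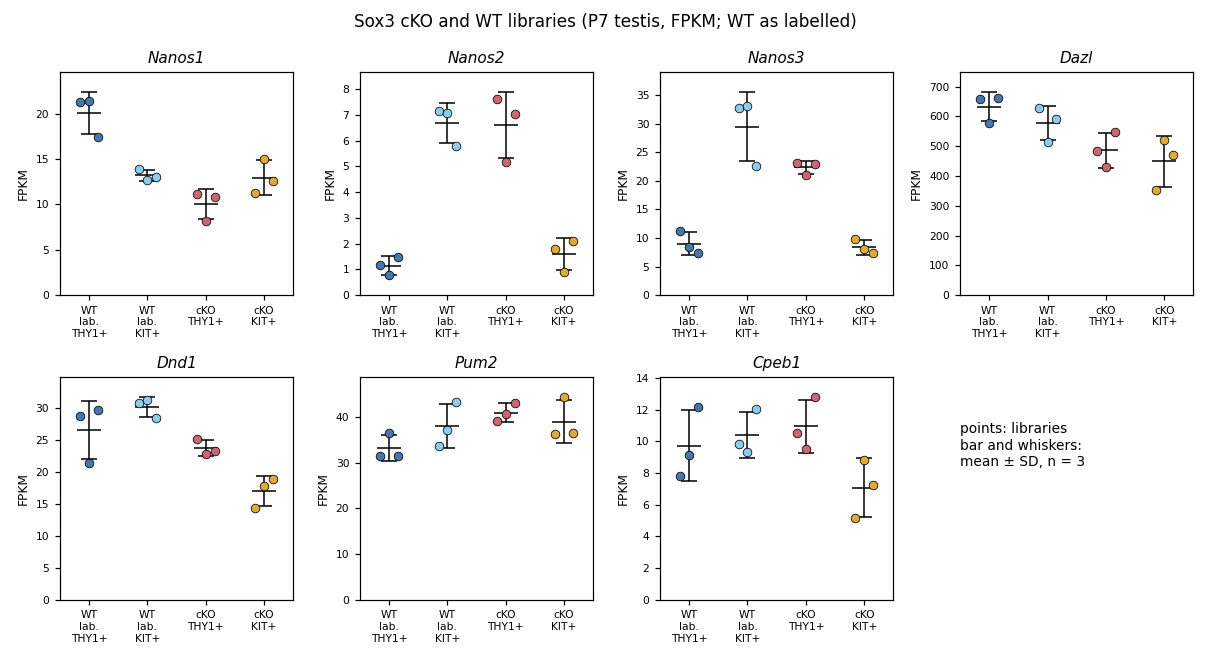
FPKM of the 7 genes in each library of the Sox3 table (points), with the mean and SD of the 3 libraries of a group (bar and whiskers). WT groups stand under their labels, each axis starts at 0, and Nanos2 and Nanos3 are high in WT labelled KIT+ and in cKO THY1+ libraries.

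The scaling to the 8 germ cell markers, none of them a member, took the median change over all genes, on the log2 scale, from -0.03 to -0.39 for null against WT THY1+, from -0.05 to 0.57 between the null fractions, from -0.02 to 0.38 between the cKO fractions and from 0.02 to 0.32 for the averaged cKO effect. In those comparisons the genes called higher and lower went from 607 and 283 to 306 and 3679, from 2954 and 3578 to 10017 and 1418, from 2227 and 2582 to 5812 and 1443, and from 1588 and 600 to 4726 and 134. Between the fractions Nanos2 and Nanos3 kept their call on it, at -1.86 and -1.17 in null mice and -1.65 and -1.002 in cKO mice. Nanos1 became a call, higher in KIT+, at 0.68 in WT, 0.82 in null and 0.78 in cKO mice. Dnd1 in null mice went from -0.66 to 0.0008 and Cpeb1 from -1.03 to -0.37 (limma adjusted p = 0.0572), so their calls did not hold on that scale. The 8 germ cell markers themselves had a median of -0.62 between the fractions of null mice, with 5 of 8 called, and of -0.17 in WT, with none called.

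**Figure D5:**
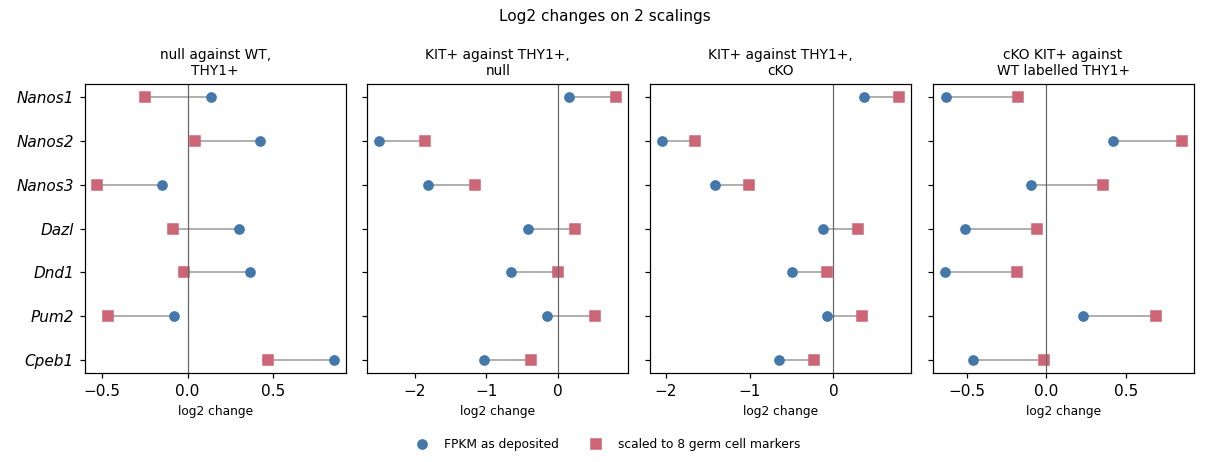
Log2 change of each member in 4 comparisons, from FPKM as deposited (circles) and after each library was scaled to the mean log2 level of 8 germ cell markers (squares). The squares of Nanos2 and Nanos3 stay at -1.002 or below in both comparisons between the fractions, and those of Dnd1 lie between -0.07 and 0.0008 in the first 3 panels.

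Genes of the same pathway were read from 5 lists, whose counts stand beside these shares of all genes called. The shares were 3.98% and 0.259% for null against WT in THY1+ and KIT+. Between the fractions they were 21.2% in WT, 29.2% in null and 22.7% in cKO mice. On the averaged cKO effect the share was 10.3%, and for cKO KIT+ against WT labelled THY1+ libraries it was 17%. The CCR4-NOT list, the deadenylase that NANOS and PUM recruit, had 14 of 14 genes tested. Between null and WT 0 of 14 were called in either fraction. Cnot6l, a catalytic subunit, was 18.2 ± 1.85 FPKM in WT THY1+ and 9.19 ± 1.05 in WT KIT+ (SD, n = 3), the 1 call of 14 there (log2 change -0.98, limma adjusted p = 8.988e-05). In null mice 3 of 14 were called between the fractions, Cnot6l (-0.81) and Cnot2 (-0.73) lower in KIT+ and Tob1, an adaptor of the complex that slows cell growth, higher (1.204). In cKO mice Tob1 was the 1 call of 14 between the fractions (0.93). It was also higher on the averaged effect (0.60, limma adjusted p = 0.00445), the 1 call of 14, and at 22.9 ± 2.64 FPKM in cKO KIT+ against 12.3 ± 2.51 in WT labelled THY1+ libraries (0.90), 1 of 2 calls there beside Cnot6l (0.61).

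The list of cytoplasmic polyadenylation and cap binding factors, with which CPEB1 works, had 0 of 12 called between null and WT in either fraction, 0 on the averaged cKO effect, 0 between the fractions of null and cKO mice and 2 in WT, Cpsf2 and Pabpc4, both 0.66 higher in KIT+. Among the 5 paralogs of the members Cpeb2 alone was called, higher in KIT+ of null mice (1.03) and of cKO mice (0.77) and on the averaged cKO effect (0.74, limma adjusted p = 0.00642). Its level was low, at 1.57 ± 0.26 FPKM in null THY1+ and 3.29 ± 0.52 in null KIT+. Cpeb2 and Cpeb1 thus had opposite orders between the fractions of null mice.

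The list of 7 mRNAs known as targets of members is read beside the share of all genes called. That share was 10.3% on the averaged cKO effect and 2.3% on the averaged null effect, and 0 of 7 were called on the latter. On the averaged cKO effect 3 of 7 fell and 0 rose, with a median of -0.49 beside 0.02 over all genes, of which 10.3% were called and 600 of 21212 called lower, and beside -0.34 for the 8 germ cell markers: Stra8, a gatekeeper of meiotic entry (-0.88), Taf7l, a germ cell form of a general transcription factor (-0.62), and Sycp3, a protein of the synaptonemal complex (-0.61). In cKO KIT+ against WT labelled THY1+ libraries 4 of 7 fell, Stra8 (-1.29) and Taf7l (-0.73) most, and Cdkn1b, an inhibitor of cyclin-dependent kinases, rose (0.88). Of all genes 17% were called there and 4.57% called lower. Stra8 was 54.7 ± 10.1 FPKM there in cKO and 133 ± 14.9 in WT. Between null and WT 0 of 7 were called in either fraction, against 3.98% of all genes in THY1+ and 0.259% in KIT+. In KIT+ against THY1+ of WT mice Stra8 alone was called (1.11), and in null mice Tex19.1 alone (-0.78), a germ cell gene that restrains transposable elements. Between those fractions 21.2% of all genes were called in WT and 29.2% in null mice.

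Of the list of 8 other germline RNA-binding regulators 6 could be tested. Between the fractions of WT mice 3 were called higher and 2 lower in KIT+, against 21.2% of all genes called. The largest changes in each set were as follows. Lin28a, which blocks let-7 maturation and marks undifferentiated spermatogonia, fell in KIT+ of WT (-0.92), null (-0.99) and cKO mice (-1.21), as did Igf2bp1 (-0.89, -0.99 and -1.29). Lin28a also fell on the averaged cKO effect (-1.21, limma adjusted p = 0.000854), the 1 call of 6, at 26.7 ± 2.15 FPKM in cKO THY1+ and 11.7 ± 2.83 in cKO KIT+ libraries against 54.7 ± 7.10 and 30.8 ± 5.41 in the WT groups with like markers. Ybx2 rose in KIT+ of WT (0.85) and null mice (0.73), at 1.65 to 3.08 FPKM by group mean there. Between null and WT 0 of 6 were called in either fraction.

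Across the 12 libraries of the Zbtb16 table Nanos2 and Nanos3 had a Pearson correlation of 0.93 on the log2 scale, and 0.91 across those of the Sox3 table. Dnd1 and Cpeb1 had 0.91 and 0.67. These are descriptions of libraries that share sorted fractions and genotypes. Among 15870 genes with a mean of at least 1 FPKM in both tables, those most like Nanos2 in the Zbtb16 table were F11r, Rragd and Lyve1 (0.99 each, and 0.97, 0.96 and 0.94 in the Sox3 table), and Lyve1 is also made by macrophages, which stand high in the same libraries. Those most like Nanos3 were Ankef1, Brwd3 and Smyd3 (0.99, 0.98 and 0.98, and 0.80, 0.85 and 0.85 in the Sox3 table). Those most like Cpeb1 were Galnt6, Zswim3 and Dennd2c (0.97, 0.96 and 0.96, and 0.85, 0.91 and 0.81), and those most like Dnd1 were Osbpl10, Adad2 and Rrp9 (0.99, 0.98 and 0.98, and 0.64, 0.88 and 0.93).

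For Nanos1 they were Vps13a, 1700066M21Rik and Tbcb (0.98, 0.98 and 0.97, and 0.70, 0.90 and 0.89 in the Sox3 table). For Dazl they were Fgfr1op, Trmt10c and Ttk (0.98, 0.97 and 0.97, and 0.74, 0.47 and 0.79). The likeness was weakest for Pum2, with Fcho2, Mapk6 and Gm17976 at 0.94, 0.93 and 0.92 and at 0.76, 0.29 and 0.63 in the Sox3 table.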

How the data were processed

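The authors sorted cells with magnetic beads, depleted ribosomal RNA, made stranded libraries, read single ends of 50 bases and aligned them to mm10 with Novoalign 4.04.01, keeping reads with several placements. The deposited values are FPKM, computed by the authors with USeq 8.9.6 per the paper's methods, in 1 table for each experiment. Annotation release and counting strand were not given in the sources used here. The authors tested with DESeq2, which needs counts. Here log2(FPKM + 0.1) was fitted instead with limma 3.58.1 (R 4.3.3, 4 group means, eBayes with trend and robust), for genes with a mean of at least 0.1 FPKM, 22374 and 21212 by table, with two-sided tests and Benjamini-Hochberg adjustment over them within each comparison. Depth was estimated from the step of 1 read in low FPKM values and GENCODE exon lengths. The labels do not say whether isolations of a group were separate litters, so p-values measure the spread between these pools. The fit was tested on simulated data.

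The labels number the replicates without saying what a number marks. Deviations from group means correlated over 0.1 in all 3 same-numbered pairs for null and WT THY1+ (0.13 to 0.48) and null and WT KIT+ (0.36 to 0.52). The same held for both null fractions (0.31 to 0.52) and for cKO THY1+ with WT labelled KIT+ (0.13 to 0.27). For these comparisons pairing is a hint from the data and not from the design. The main fits held no blocks, so their SEs, intervals and p-values take the libraries as unpaired. Blocks were run as an alternative, and between the null fractions 7071 in place of 6532 of all genes were then called. In the other comparisons at least 1 pair was below 0.1.

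Members and lists were chosen with earlier results of these data known. Named genes are the members, the targeted and sorting genes, up to 3 calls per pathway list and comparison with the largest change, and the 3 genes most correlated with each member. Alternatives were other pseudocounts, filters, scalings, eBayes settings, replicate blocks, the groups of a comparison alone, leaving out each library, and Sox3 replicates 2 and 3 alone.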

Additional observations from a re-analysis of the deposited data

Results flagged for a closer look

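In the Sox3 table, cKO against WT taken by the labels gave Nanos2 a log2 change of 2.46 in THY1+ and -2.07 in KIT+, and Nanos3 a change of 1.32 and -1.79. Every cKO library lay above every WT library in THY1+ and below every WT library in KIT+ for both genes, so the effects point in opposite directions. That difference was not tested. The Thy1 and Kit levels of the WT libraries go against their fraction labels, and between groups with like markers the changes were -0.03 and 0.42 for Nanos2 and -0.38 and -0.10 for Nanos3, with 0 calls. Groups of 3 libraries are too small for a test of single outlying libraries.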

How the results depend on the processing

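Another pseudocount, other filters, the median-ratio scaling and other eBayes settings moved no count of called members by over 1.5 times, though adding 1 FPKM before the log took Cpeb1 between the cKO fractions (-0.58) and Nanos1 between the labelled WT groups (-0.56) under 1.5-fold. The calls of Nanos2 and Nanos3 between the fractions held in every alternative run. Scaling to the germ cell markers changed the count for null against WT THY1+ from 1 to 0 and for cKO KIT+ against WT labelled THY1+ from 2 lower to 1 higher, and replicates 2 and 3 alone changed the latter to 0. Leaving out 1 library gave 0 to 1, 0 to 3 and, for the interaction, 0 to 1 calls, the last for Cpeb1 without null KIT+ replicate 1. With the replicate block the interaction had 2 calls, Cpeb1 (-0.85, limma adjusted p = 0.0188) and Dazl (-0.67, limma adjusted p = 0.0274). There 2756 of 22374 genes were called in place of 7. Same-numbered pairs of null and WT correlated over 0.1 within each fraction, but not every pair across the fractions did. Each of the 12 Zbtb16 libraries and 10 of the 12 Sox3 libraries correlated best with its own number, a hint from the data. The block changed no other call of a member.

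Signs turned for calls too, since Dnd1 between the null fractions began at -0.66. On the germ cell scaling the log2 changes became, for null against WT THY1+, -0.25 (Nanos1), -0.084 (Dazl) and -0.0209 (Dnd1), for KIT+ 0.031 (Pum2), for KIT+ against THY1+ in WT 0.0187 (Pum2) and in null 0.24 (Dazl), 0.0008 (Dnd1) and 0.51 (Pum2), and for the interaction 0.14 (Nanos1), 0.45 (Nanos2), 0.34 (Nanos3), 0.22 (Dnd1) and 0.50 (Pum2). In the Sox3 table they became 0.56 (Nanos1), 0.23 (Dazl) and 0.0208 (Cpeb1) for cKO against WT labelled KIT+ by label, -0.035 (Cpeb1) between the labelled WT groups, 0.29 (Dazl) and 0.34 (Pum2) between the cKO fractions, 0.0818 (Nanos3) and 0.12 (Cpeb1) for the averaged effect, 0.15 (Nanos2) for cKO THY1+ and 0.35 (Nanos3) for cKO KIT+ against WT of like markers, and 0.0389 (Nanos1) and 0.0064 (Dazl) for their difference. On replicates 2 and 3 alone Nanos1 by label in KIT+ became 0.10 and Dazl between the cKO fractions 0.0321. The cause was not tested.

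With 1 library left out these ranges crossed 0. In the Zbtb16 table they were -0.18 to 0.21 for Cpeb1 and -0.0868 to 0.11 for Dnd1 in KIT+, -0.28 to 0.0022 for Nanos3 in THY1+, -0.11 to 0.0829 for the averaged effect of Dazl and -0.26 to 0.0387 for the interaction of Nanos2. In the Sox3 table they were -0.0316 to 0.29 for Cpeb1 between the labelled WT groups, -0.047 to 0.18 for Cpeb1 and -0.14 to 0.14 for Nanos2 in cKO THY1+ against WT labelled KIT+, -0.25 to 0.034 for Dazl between the cKO fractions, -0.14 to 0.0617 for Nanos1 and -0.0595 to 0.13 for Pum2 by label in KIT+, and -0.23 to 0.0701 for Nanos3 in cKO KIT+ against WT labelled THY1+. Depth limits Nanos2 most, with 16 reads in its lowest library.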
